A study of Mus musculus with 58 samples.

Results

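The shape of the liver response to tetrachloroethylene (PCE), a chlorinated solvent, was followed over 5 dose levels by total RNA sequencing. The dose series consists of every liver library labelled PCE, 14 of the 58 libraries in the series, with 3 vehicle libraries, 3 at 0.22 mmol/kg, 2 at 0.67 mmol/kg, 3 at 2 mmol/kg and 3 at 6 mmol/kg. The sources also list these doses as 30, 100, 300 and 1000 mg/kg, and the 2 scales were not reconciled here. Mice of every group, vehicle included, were adult males of 5 to 6 weeks of the hybrid B6C3F1/J named in the protocol, although a strain label reads C57BL/6, and the 2 entries were not reconciled here. Each received 1 intragastric dose in 5% Alkamuls EL-620, a surfactant, in saline at 5 mL/kg. The time from dose to sampling is not given in the sources used here, so each value is a single point on a time course of unknown position. Nothing in the labels says whether replicates came from separate animals, so p-values measure only the spread between these samples. A matching liver series of 15 libraries received trichloroethylene (TCE), which carries a hydrogen in place of 1 chlorine, with vehicle libraries of its own.

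Inhaled or swallowed PCE is metabolised in the liver, mainly by oxidation through cytochromes P450, and trichloroacetic acid is its main oxidative product. Trichloroacetic acid activates PPARα, a nuclear receptor that pairs with RXR on DNA and turns on genes of fatty acid uptake, oxidation and ketone body production. In rodent liver its best known responders are the fatty acid ω-hydroxylases of the Cyp4a family, peroxisomal β-oxidation enzymes and acyl-CoA thioesterases. Induction of such genes can be graded with dose, can set in above a dose, or can turn back at the highest dose, and these are the shapes compared below.

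Totals ran from 37538251 to 125880542 counts per library. The libraries at both ends of the series were the deeper ones, by the submitters' design, with 88048143 to 125880542 counts at vehicle and 6 mmol/kg and 37538251 to 53386583 at the doses between. Hepatocyte markers such as albumin were abundant in every library, with a summed level of 117000 to 188000 counts scaled to a common library size (CPM). Of 8 kidney tubule genes, Umod, Slc12a1, Slc12a3 and Aqp2 were at 0 in all 14 libraries. The 8 together summed to 1.88 to 3.25 CPM in vehicle libraries, 2.64 to 3.48 at 0.67 and 0.145 to 1.16 CPM at 6 mmol/kg. Base composition moved with dose. The slope of log2 CPM on gene GC content, per 10 points of GC, was 0.067 to 0.329 in vehicle libraries, -0.01 to 0.121 at 0.22, 0.001 to 0.122 at 0.67, -0.149 to 0.022 at 2 and -0.258 to -0.125 at 6 mmol/kg. Vehicle replicate 2 stood apart at 0.329, and 6 mmol/kg replicate 1 stood apart with the highest levels of many induced genes, so counts are also given without each of them.

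PPARα and RXR bind a direct repeat of a half-site with a gap of 1 base (DR1), AGGTCANAGGTCA. Of the 34 PPARα-related genes that rose with dose, described below, 25 had at least 1 of 26 promoters in the RefSeq table (GRCm38.p6, 250 bases before to 50 after the start). The rest, among them the steep risers Cyp4a14, Cyp4a10, Cyp4a31 and Vnn1, had no promoter there and were not searched. The exact repeat, searched on both strands, was in 0 of these 26 promoters and in 0.0396% of all 32851 promoters. With up to 2 mismatches it was in 3 of 26 (11.5%), against 3.86% of all promoters and 3.26% of those of tested genes. The half-site AGGTCA alone, which also counts half-sites inside a repeat, was in 23.1% of the 26, against 16.3% of all and 13.3% of those of tested genes. That 23.1% counts a half-site of Acot3 in each of its 2 overlapping promoters. The 3 promoters shown are those among the 26 searched with such a loose match, and none holds the exact repeat. They come from Acot4 (a peroxisomal thioesterase, chr12:84038129-84038428, plus strand), Slc25a20 (the mitochondrial carnitine-acylcarnitine carrier, chr9:108661886-108662185, plus strand) and Cd36 (a fatty acid uptake receptor, chr5:17835847-17836146, minus strand). The matched 13 bases, each with 2 mismatches, are in capitals.
Acot4: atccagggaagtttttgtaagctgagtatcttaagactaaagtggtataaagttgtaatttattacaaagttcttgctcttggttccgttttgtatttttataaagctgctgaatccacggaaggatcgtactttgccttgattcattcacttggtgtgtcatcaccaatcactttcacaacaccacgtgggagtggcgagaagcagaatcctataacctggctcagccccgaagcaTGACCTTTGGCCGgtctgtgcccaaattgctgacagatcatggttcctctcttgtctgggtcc
Slc25a20: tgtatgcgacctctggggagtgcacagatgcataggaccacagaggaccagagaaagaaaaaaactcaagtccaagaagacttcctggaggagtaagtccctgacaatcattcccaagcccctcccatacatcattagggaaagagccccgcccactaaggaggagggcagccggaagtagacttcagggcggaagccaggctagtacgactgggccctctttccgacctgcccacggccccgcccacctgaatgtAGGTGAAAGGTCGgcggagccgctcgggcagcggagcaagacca
Cd36: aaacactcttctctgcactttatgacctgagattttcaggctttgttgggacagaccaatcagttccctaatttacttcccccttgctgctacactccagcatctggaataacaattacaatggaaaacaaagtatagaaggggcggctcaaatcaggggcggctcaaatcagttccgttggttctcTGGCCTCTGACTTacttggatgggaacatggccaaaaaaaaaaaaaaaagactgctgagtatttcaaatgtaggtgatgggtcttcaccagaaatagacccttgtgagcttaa
The match begins 13 bases before the start in Acot4, 7 bases after it in Slc25a20 and 63 bases before it in Cd36. A match is a description of these letters and not a binding site. Acot4 was at 15.4, 11.8 and 15.4 CPM in vehicle libraries, 16.7, 16.8 and 15.7 at 2 mmol/kg and 55.3, 17.3 and 35.0 CPM at 6 mmol/kg. Slc25a20 was at 107, 90.0 and 105 CPM in vehicle libraries, 119, 128 and 128 at 2 mmol/kg and 203, 120 and 160 CPM at 6 mmol/kg. For both genes every 2 and 6 mmol/kg library lay above all vehicle libraries. Cd36 had at most 0.626 CPM in any library, so its trend rests on few reads.

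Over the whole dose series 1534 of 13015 genes tested (11.8%) had a trend over dose rank 0 to 4, with 661 higher (5.08%) and 873 lower (6.71%). The trend is given throughout as log2 change per rank with its standard error (SE), and adjusted p-values are from edgeR's quasi-likelihood test, adjusted over all genes tested, with 0.05 as the threshold. Most changes were small, with a median of 0.17 per rank among the higher genes and -0.15 among the lower ones. A change over 0.5 per rank was reached by 28 of the higher genes, and a change under -0.5 by 15 of the lower ones. In an unrestricted test of any difference among the 5 doses, 47 genes (0.361%) were called, 41 of which also had a trend. In all, 3 genes (0.0231%) departed from a straight line over dose rank after adjustment, 484 did so at an unadjusted p under 0.05, and DESeq2 called 54. Without 6 mmol/kg replicate 1 the trend had 433 genes, without 6 mmol/kg replicate 3 it had 447, without vehicle replicate 2 it had 512, and without vehicle replicate 3 it had 2569.

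The genes with the steepest rise were Cyp4a ω-hydroxylases, which oxidise the far end of fatty acids. Cyp4a14 (chromosome 4, 115486200 to 115496158, mm10) had 10.4, 5.22 and 2.05 CPM in vehicle libraries, 65.0, 14.5 and 8.91 at 0.22, 10.6 and 21.2 at 0.67, 207, 704 and 289 at 2, and 7504, 1158 and 2201 CPM at 6 mmol/kg. The levels at 0.22 and 0.67 overlapped each other, and all 2 mmol/kg libraries lay above both of them and below all 6 mmol/kg libraries. The slope was 2.25 ± 0.26 (adjusted p = 0.000282), and the group means lay 2.32, 1.43, 6.09 and 9.26 log2 units above vehicle from the lowest to the highest dose. Cyp4a10, beside it on the chromosome, had 63.9, 34.4 and 22.3 CPM in vehicle libraries, 261, 60.1 and 78.6 at 0.22, 54.0 and 139 at 0.67, 611, 1173 and 749 at 2, and 5420, 1571 and 2915 CPM at 6 mmol/kg (slope 1.54 ± 0.17, adjusted p = 0.000167). In both genes 0.22 mmol/kg replicate 1 was the highest of the 3 libraries of its dose. Cyp4a31 had 0.752, 0.882 and 0.607 CPM in vehicle libraries, 2.07, 0.700 and 0.684 at 0.22, 1.44 and 1.92 at 0.67, 5.10, 6.90 and 5.38 at 2, and 22.9, 10.6 and 19.9 CPM at 6 mmol/kg (slope 1.16 ± 0.10, adjusted p = 2.77e-05). Its 5 means rose at each dose, and from 0.67 mmol/kg up every library lay above all vehicle libraries. Cyp4a genes are near copies of each other, so how reads divide among them is uncertain.

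In Ehhadh, Acot1 and Acot3 the levels at 0.22 mmol/kg overlapped those of vehicle. Ehhadh (chromosome 16, 21761285 to 21787834), the bifunctional enzyme of peroxisomal β-oxidation, had 231, 132 and 254 CPM in vehicle libraries, 331, 204 and 165 at 0.22, 222 and 246 at 0.67, 525, 987 and 743 at 2, and 2582, 1521 and 2205 CPM at 6 mmol/kg. Vehicle, 0.22 and 0.67 mmol/kg overlapped, and the 2 mmol/kg libraries formed a level of their own between these and 6 mmol/kg. The slope was 0.84 ± 0.10 (adjusted p = 0.000463), the means at 0.22 and 0.67 mmol/kg lay 0.18 and 0.19 log2 units above vehicle, and those at 2 and 6 mmol/kg 1.87 and 3.36. Acot1, a cytosolic acyl-CoA thioesterase, had 17.7, 9.95 and 19.2 CPM in vehicle libraries, 17.0, 10.2 and 11.7 at 0.22, 10.2 and 17.0 at 0.67, 35.6, 65.8 and 33.1 at 2, and 139, 52.1 and 98.5 CPM at 6 mmol/kg (slope 0.69 ± 0.11, adjusted p = 0.00378). Again the lowest 3 groups overlapped and every library at 2 and 6 mmol/kg lay above them. Acot3, a peroxisomal thioesterase, had 1.36, 0.816 and 1.44 CPM in vehicle libraries, 0.965, 1.40 and 0.333 at 0.22, 0.274 and 0.579 at 0.67, 1.92, 2.45 and 2.60 at 2, and 47.0, 1.69 and 17.7 CPM at 6 mmol/kg. Its slope of 1.04 ± 0.22 (adjusted p = 0.0125) was 0.70 (adjusted p = 0.0564) without 6 mmol/kg replicate 1, and the 6 mmol/kg libraries spread over the range from 1.69 to 47.0 CPM.

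Vnn1 and Rad51b were clear of vehicle from 0.67 mmol/kg up. Vnn1 (chromosome 10, 23894688 to 23905344), a pantetheinase, had 5.14, 4.69 and 3.38 CPM in vehicle libraries, 7.69, 4.49 and 4.45 at 0.22, 8.18 and 11.8 at 0.67, 12.5, 19.0 and 21.3 at 2, and 56.5, 26.2 and 28.1 CPM at 6 mmol/kg (slope 0.78 ± 0.07, adjusted p = 5.40e-05). From 0.67 mmol/kg up each group lay wholly above the group before it. Rad51b (chromosome 12, 79297282 to 79848260), a gene of homologous recombination, had 0.439, 0.353 and 0.188 CPM in vehicle libraries, 0.362, 0.285 and 0.444 at 0.22, 1.02 and 1.65 at 0.67, 1.81, 2.79 and 3.22 at 2, and 7.47, 3.58 and 4.54 CPM at 6 mmol/kg. Vehicle and 0.22 mmol/kg overlapped, and each later group again lay wholly above the one before. The slope was 1.06 ± 0.09 (adjusted p = 2.77e-05), with means 0.17, 2.03, 2.99 and 3.99 log2 units above vehicle. Its reads fell on 1 of its 2 RefSeq transcripts in all 14 libraries, apart from 1 count in 6 mmol/kg replicate 3. The calls for Rad51b, Vnn1, Cyp4a31 and the falling Cyp2c53-ps held in all 24 alternatives that kept dose as a rank (other dose codings were not followed gene by gene), including the one with vehicle to 2 mmol/kg alone, where 7 genes in all were called.

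**Figure D1:**
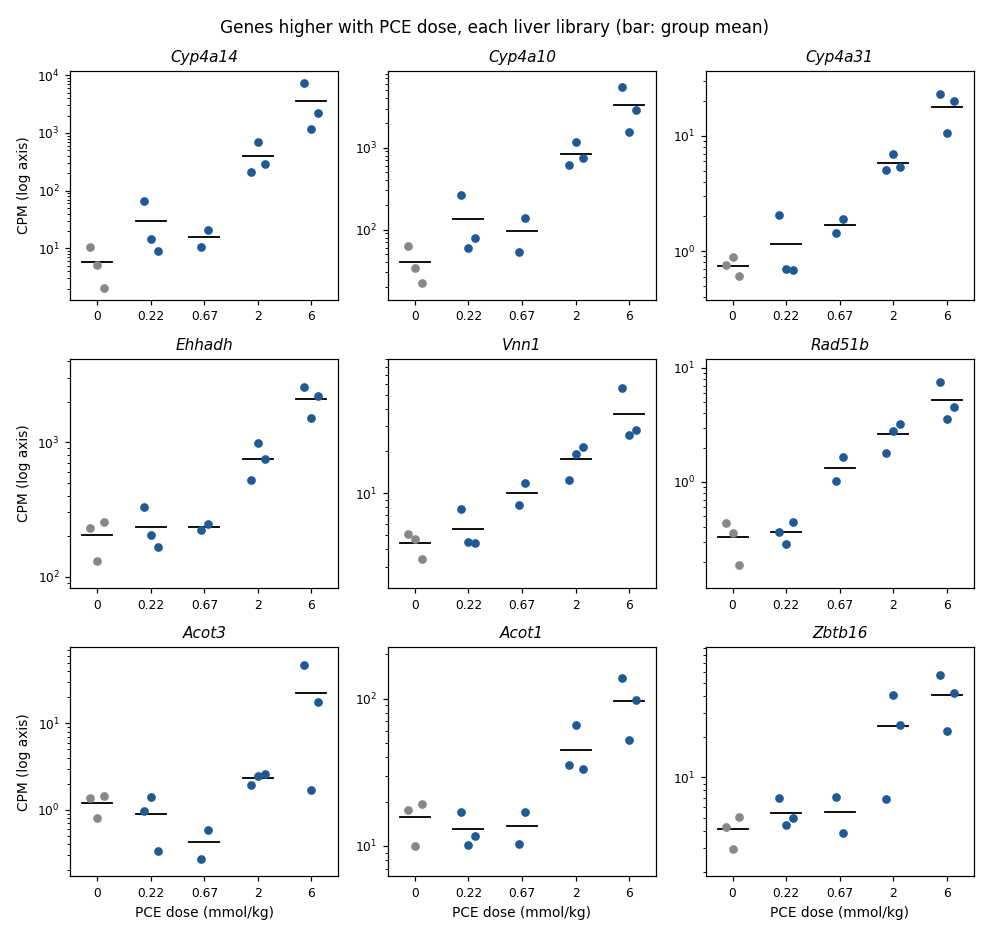
Level of 9 genes that rose over the series, in CPM on a log axis, against PCE dose in mmol/kg, with a point for each of the 14 liver libraries (grey vehicle, blue PCE) and a bar at each group mean. Rad51b and Vnn1 leave the vehicle range at 0.67 mmol/kg, while Ehhadh, Acot1 and Zbtb16 do so at 2 mmol/kg.

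Of the list of PPARα and fatty acid oxidation targets, 50 of 56 genes passed the count filter, Peci was not found under that symbol, and Acot5, Cidec, Hsdl2, Mgll and Ucp3 had too few counts to be tested. Among the 50, 34 rose, 0 fell and 16 did not pass, beside 5.08% higher among all genes tested. The list's median slope was 0.26 per rank, against 0 over all genes tested. Its median difference from vehicle was -0.03 at 0.22, -0.04 at 0.67, 0.48 at 2 and 1.04 at 6 mmol/kg, whereas over all genes tested it was -0.01, -0.03, -0.02 and 0. At 0.22 mmol/kg 18 of the 34 had a mean above vehicle, and at 0.67 mmol/kg again 18, while in all 34 the 2 mmol/kg mean exceeded the 0.67 mmol/kg mean and the 6 mmol/kg mean exceeded that at 2 mmol/kg. At the median gene of the 34, 4.8, 1.09 and 57.2% of the log2 change at 6 mmol/kg had been reached at 0.22, 0.67 and 2 mmol/kg. For the 661 higher genes as a whole these shares were 17.1, 21.9 and 58.2%. The trend in these same libraries had selected the 34, which favours high means at the upper doses. Counts and shares among the 34 are therefore a description and no separate evidence of where the rise began. The lowest dose from which every library lay above all vehicle libraries was 0.67 mmol/kg in 6 of the 34 (Cyp4a14, Cyp4a31, Cyp4a32, Vnn1, Angptl4 and Decr2), 2 mmol/kg in 19 and 6 mmol/kg in 9.

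Members of several steps of fatty acid use took part. For peroxisomal β-oxidation these included the thiolases Acaa1a (slope 0.17) and Acaa1b (0.39), the isomerase Eci2 (0.38), the dienoyl-CoA reductase Decr2 (0.28) and Pex11a (0.35), which promotes peroxisome division. Mitochondrial entry and oxidation were represented by the carnitine palmitoyltransferase Cpt1a (0.28), Crat (0.26), the dehydrogenases Acadm (0.26) and Acadl (0.20), Etfdh (0.27) and Decr1 (0.23). The fasting hormone Fgf21 (slope 0.47, adjusted p = 0.0163) had 14.4, 22.6 and 15.7 CPM at 6 mmol/kg, against 6.25, 4.65 and 2.57 CPM in vehicle libraries, and was first clear of vehicle at 6 mmol/kg. Pdk4, which restrains pyruvate oxidation, was a weaker case (0.22, adjusted p = 0.0404) and kept its call in 9 of 24 alternatives. The 16 that did not pass were Acaa2, Acads, Acadvl, Acsl1, Cpt1b, Cpt2, Creb3l3, Fabp1, Fitm1, Fitm2, Hadha, Hadhb, Pex19, Plin2, Plin5 and Slc27a1. Ppara itself had a slope of 0.06 (adjusted p = 0.59). The 34 were 17 without 6 mmol/kg replicate 1, 21 without 6 mmol/kg replicate 3, 28 with a GC offset per library, chosen after seeing the data, and 3 with the GC slope as a covariate.

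**Figure D2:**
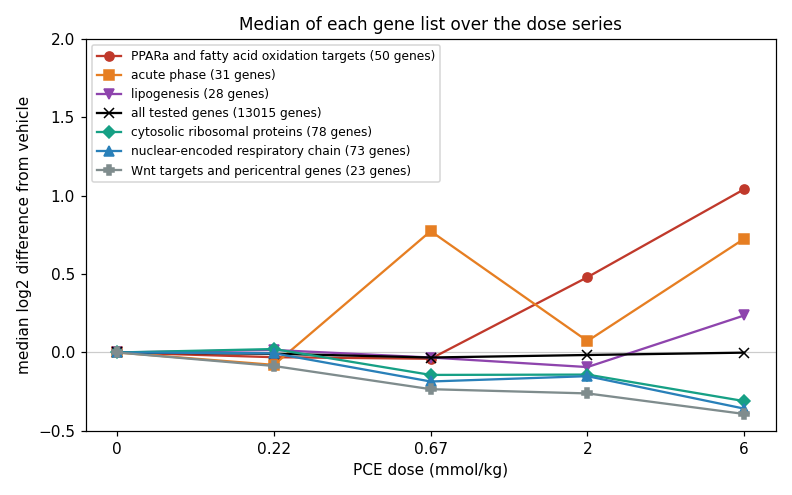
Median log2 difference from vehicle of the tested genes of 6 lists and of all 13015 genes tested, against PCE dose in mmol/kg, with the number of genes in the legend. The PPARα list stays near 0 to 0.67 mmol/kg and reaches 1.04 at 6 mmol/kg, while the acute phase list has its highest median, 0.77, at 0.67 mmol/kg.

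To describe shapes, each gene's 5 means were classed. A middle-dose peak or trough has its farthest mean from vehicle at 0.22, 0.67 or 2 mmol/kg and comes back at 6 mmol/kg by over 0.5 of that distance. A step has at least 0.5 of the range in 1 interval, and other genes are graded. Among the 47 genes called for any difference, 16 had their step between 0.67 and 2 mmol/kg, 15 were graded, 9 stepped between 2 and 6 mmol/kg, 5 were middle-dose peaks, 2 stepped between 0.22 and 0.67 mmol/kg, and 0 stepped between vehicle and 0.22 mmol/kg. Steps between 2 and 6 mmol/kg were thus 19.1% of the 47 (exact 95% interval 9.15 to 33.3%), against 23.2% of all genes tested, and peaks were 10.6% (3.55 to 23.1%), against 16.2%. These intervals take genes as independent, which they are not. The 16 with a step between 0.67 and 2 mmol/kg include GBP11, taken up below for its high level at 0.67 mmol/kg. Its mean was 1.06 log2 units above vehicle at 0.67 mmol/kg but lay farthest from vehicle at 6 mmol/kg (-1.25). All 5 means ran strictly one way in 18 of the 47, against 7.82% of all genes tested, so a graded gene need not be monotonic. Among the 34 called PPARα list members, 17 stepped between 0.67 and 2 mmol/kg, 9 were graded and 8 stepped between 2 and 6 mmol/kg. Over all genes tested 14.6% stepped between 0.67 and 2 mmol/kg, 10.6% were graded and 23.2% stepped between 2 and 6 mmol/kg.

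The classes rest on means, and the number of genes called between neighbouring doses was 0 in each of 4 steps by edgeR. Unadjusted p-values under 0.05 numbered 421 for 0.22 mmol/kg against vehicle, 399 for 0.67 against 0.22, 533 for 2 against 0.67 and 769 for 6 against 2 mmol/kg, and DESeq2 called 6, 22, 30 and 11 genes. The quadratic contrast over dose rank, which would mark a bend, also called 0 genes, with 1116 genes below 0.05 before adjustment and 44 called by DESeq2. The quadratic genes of smallest p were Ppp1r1b, a phosphatase inhibitor, and Gbp6, a guanylate-binding GTPase, each with an adjusted p of 0.355. Nor was the step from 2 to 6 mmol/kg called for Ehhadh (1.48 ± 0.33) or Cyp4a14 (3.18 ± 0.91), each with adjusted p = 0.768. As another description chosen after seeing the data, dose was replaced by 2 levels. A split below 0.22 mmol/kg called 0 genes, below 0.67 mmol/kg 2, below 2 mmol/kg 524 (4.03%) and below 6 mmol/kg 206 (1.58%). The splits differ in how many libraries fall on each side, and so in power, so these counts do not locate a threshold.

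The shapes of rising and falling genes are a description, since the trend had already selected these genes. Among the 661 higher genes 34% were graded, 25.3% stepped between 0.67 and 2 mmol/kg and 29.7% between 2 and 6 mmol/kg. Among the 873 lower genes 52.2% were graded, 14.5% stepped between 0.67 and 2 mmol/kg and 17.4% between 2 and 6 mmol/kg. Over all genes tested these shares were 10.6, 14.6 and 23.2%, so the last class lay near its background. All 5 means ran strictly one way in 204 of the higher and 411 of the lower genes, and in 7.82% of all genes tested. At 0.67 mmol/kg the median higher gene had 21.9% of its log2 change at 6 mmol/kg and the median lower gene 36.7%, and at 2 mmol/kg the shares were 58.2 and 63.2%. The lowest dose from which every library lay beyond all vehicle libraries was 0.22 mmol/kg in 7.87% of the higher and 11.5% of the lower genes, 0.67 mmol/kg in 9.53 and 17%, 2 mmol/kg in 31.5 and 27.8%, and 6 mmol/kg in 45.4 and 41.8%. Over all genes tested the shares were 2.11, 2.5, 5.12 and 20.6%, from the lowest of these doses to the highest. For comparison, 30.3% of all genes tested had every 6 mmol/kg library beyond all vehicle libraries on the side of their slope. No test of the difference between rising and falling genes was made.

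**Figure D3:**
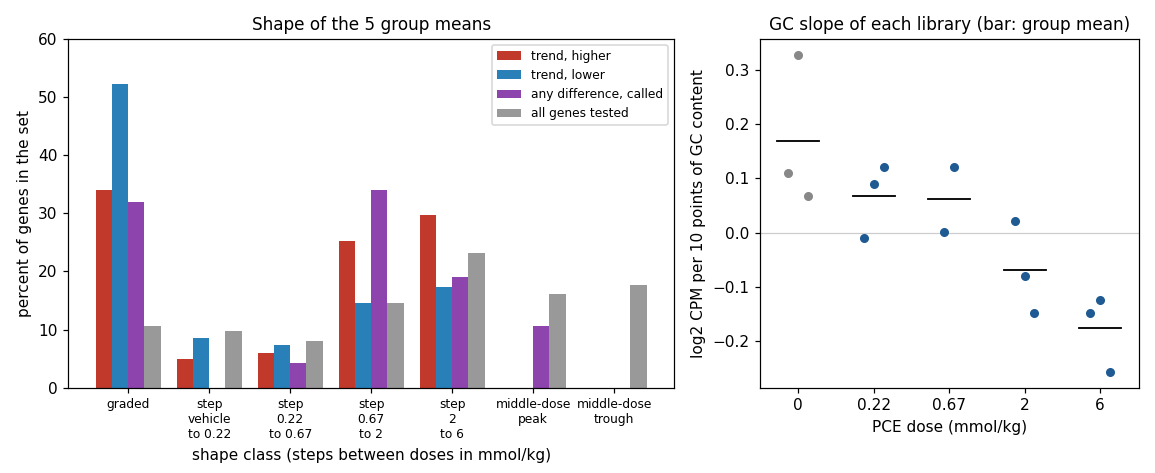
Left, percent of genes in each shape class among the 661 trend-higher genes, the 873 trend-lower genes, the 47 genes called for any difference and all 13015 genes tested. Right, slope of log2 CPM on gene GC content for each of the 14 libraries by dose, with a bar at each group mean. Graded shapes make up 34% of the rising and 52.2% of the falling set, and the GC slopes run from 0.329 in a vehicle library to -0.258 at 6 mmol/kg.

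The steepest fall was that of Cyp2c53-ps (chromosome 19, 39229254 to 39274737), a Cyp2c pseudogene whose reads may include those of intact relatives. It had 2.96, 5.29 and 3.41 CPM in vehicle libraries, 2.68, 2.13 and 2.77 at 0.22, 0.746 and 0.669 at 0.67, 0.686, 0.636 and 0.494 at 2, and 0.153, 0.368 and 0.806 CPM at 6 mmol/kg. Every treated library lay below all vehicle libraries, the largest step was from 0.22 to 0.67 mmol/kg, and beyond it the groups overlapped (slope -0.83 ± 0.10, adjusted p = 0.000657). Slc34a2, a sodium-phosphate cotransporter on chromosome 5, had 8.73, 5.58 and 14.5 CPM in vehicle libraries, 4.94, 3.53 and 2.70 at 0.22, 3.85 and 3.10 at 0.67, 2.77, 1.11 and 2.73 at 2, and 0.935, 1.82 and 1.04 CPM at 6 mmol/kg (slope -0.67 ± 0.09, adjusted p = 0.00128). It too was below vehicle in all 11 treated libraries, with the 0.22 and 0.67 mmol/kg libraries overlapping. Clic3, a chloride intracellular channel family member, had 18.1, 38.1 and 21.1 CPM in vehicle libraries, 11.2, 20.9 and 20.8 at 0.22, 13.7 and 9.87 at 0.67, 13.3, 5.56 and 9.49 at 2, and 0.986, 1.97 and 4.70 CPM at 6 mmol/kg (slope -0.73 ± 0.13, adjusted p = 0.00675). Here the largest step was the last, and the 6 mmol/kg libraries lay below all others. Serpina12, the adipokine vaspin, had 142, 127 and 117 CPM in vehicle libraries, 78.8, 91.7 and 146 at 0.22, 74.0 and 121 at 0.67, 78.0, 42.8 and 29.2 at 2, and 10.2, 49.1 and 26.1 CPM at 6 mmol/kg (slope -0.54 ± 0.11, adjusted p = 0.0105). It was clear of vehicle from 2 mmol/kg up.

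**Figure D4:**
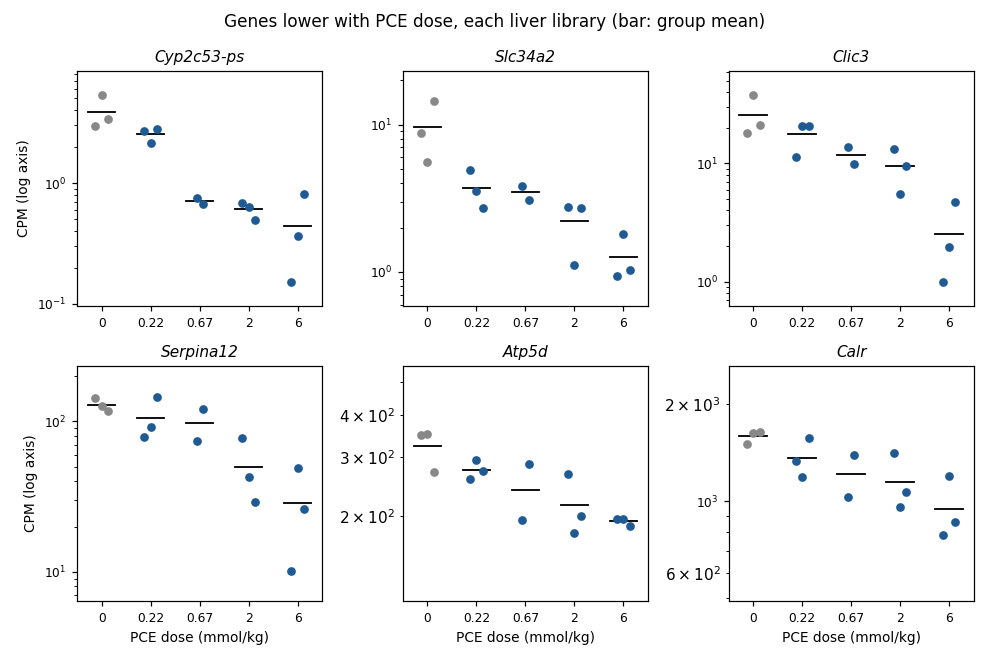
Level of 6 genes that fell over the series, in CPM on a log axis, against PCE dose in mmol/kg, with a point per library (grey vehicle, blue PCE) and a bar at each group mean. Cyp2c53-ps and Slc34a2 are below all vehicle libraries at 0.22 mmol/kg, while Serpina12 is so from 2 mmol/kg.

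The other steeply falling genes were Snx22, a sorting nexin (slope -0.51), Tsc22d1, a transcriptional regulator (-0.50), Slc27a3, an acyl-CoA synthetase (-0.49), and the homeobox factor Pitx3 (-0.48), all graded. Ptgds, prostaglandin D synthase (-0.69, adjusted p = 0.0453), and the lymphocyte gene Cd4 (-0.47, adjusted p = 0.0367) had weaker support, keeping their calls in 10 and 12 of 24 alternatives. Nuclear-encoded respiratory chain genes fell in 20 of 73 cases and rose in 0, beside 6.71% lower among all genes tested, with a list median of -0.01, -0.19, -0.15 and -0.36 log2 units from the lowest to the highest dose. Atp5d, a subunit of ATP synthase, had 349, 351 and 270 CPM in vehicle libraries, 257, 293 and 272 at 0.22, 194 and 285 at 0.67, 267, 177 and 200 at 2, and 196, 196 and 187 CPM at 6 mmol/kg (slope -0.19, adjusted p = 0.00838). Its 6 mmol/kg libraries were the tightest group and lay below all vehicle libraries. The Atp5d call was kept in 20 of 24 alternatives. It was lost with the GC offset, with the GC slope as a covariate, over vehicle to 2 mmol/kg and over 0.22 to 6 mmol/kg. Cytosolic ribosomal protein genes fell in 9 of 78 cases, led by Rps2 (-0.13, adjusted p = 0.0143), and rose in 0. Median GC content was 55.6% for falling genes, 44.2% for rising genes and 49.7% for the whole tested set. With the GC offset 8 of the 20 respiratory chain calls and 0 of the 9 ribosomal calls held, and without vehicle replicate 3 the 2 lists had 35 and 24 falling genes. Without vehicle replicate 2 or 6 mmol/kg replicate 1 they had 5 and 1 each, and without 6 mmol/kg replicate 3 they had 7 and 1. The ribosomal list also had 4 without 6 mmol/kg replicate 2 or 2 mmol/kg replicate 3, and 5 without 0.22 mmol/kg replicate 2.

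A middle-dose peak was the other shape, and it rests on the 2 libraries at 0.67 mmol/kg. Orm2 (chromosome 4, 63362449 to 63365877), an acute phase orosomucoid, had 20.9, 47.6 and 22.0 CPM in vehicle libraries, 17.2, 17.8 and 13.8 at 0.22, 676 and 415 at 0.67, 36.1, 18.3 and 46.5 at 2, and 150, 27.8 and 25.7 CPM at 6 mmol/kg. Both 0.67 mmol/kg libraries lay above the other 12, and 6 mmol/kg replicate 1 came next. Saa3 (chromosome 7, 46711998 to 46719615), a serum amyloid A gene, had 2.75, 5.14 and 2.23 CPM in vehicle libraries, 5.57, 5.58 and 4.60 at 0.22, 89.6 and 36.6 at 0.67, 4.62, 3.75 and 6.11 at 2, and 12.5, 2.28 and 3.47 CPM at 6 mmol/kg. Its order of libraries was the same at the top. Both genes departed from a straight line (adjusted p = 0.0405 each, edgeR), as did 1700018L02Rik (adjusted p = 0.0498), at 9.05 and 9.65 CPM at 0.67 mmol/kg and 1.59 to 5.52 CPM in the other 12 libraries. Saa1, not called, had 103, 607 and 171 CPM in vehicle libraries, 12070 and 6091 CPM at 0.67 mmol/kg, 7401 CPM in 6 mmol/kg replicate 1, and 79.1 to 606 CPM in the other 8 libraries. The departure calls were 0 without 0.67 mmol/kg replicate 1, 3 without replicate 2 of that dose, 8 without 6 mmol/kg replicate 1, and 0 with the GC offset.

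**Figure D5:**
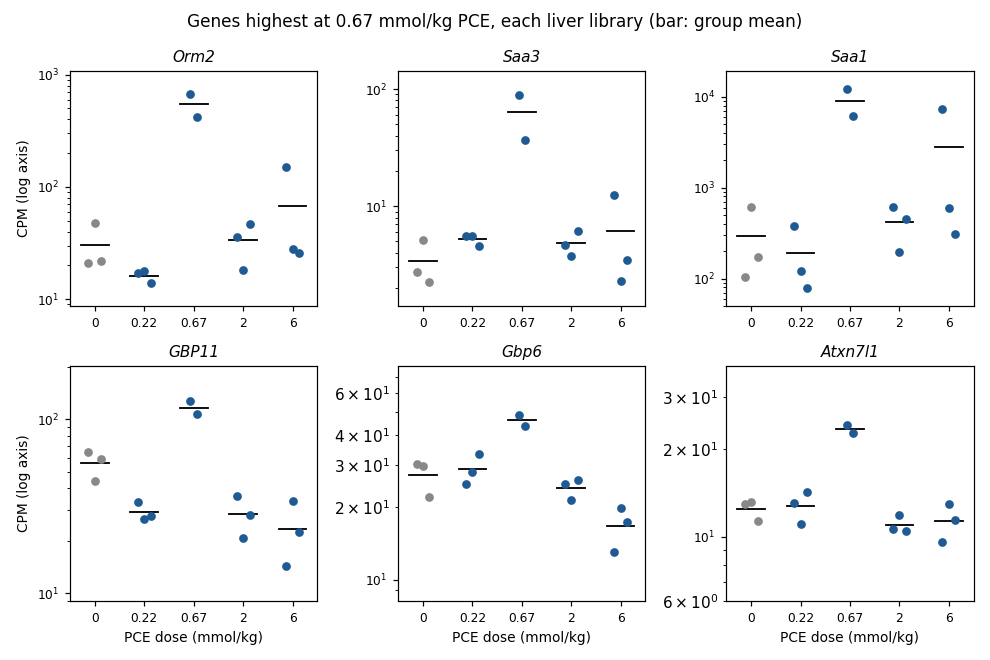
Level of 6 genes with their highest levels at 0.67 mmol/kg, in CPM on a log axis, against PCE dose in mmol/kg, with a point per library (grey vehicle, blue PCE) and a bar at each group mean. Orm2 is at 676 and 415 CPM in the 2 libraries at 0.67 mmol/kg, and 6 mmol/kg replicate 1 is the only other library above 50 CPM.

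Among the 31 acute phase genes 10 were classed as middle-dose peaks, beside 16.2% of all genes tested, and the list's median was -0.08, 0.77, 0.07 and 0.73 log2 units from vehicle over the 4 doses. With dose, 4 rose (Il1rn, the interleukin 1 receptor antagonist, Mt1 and Mt2, metallothioneins, and Il6ra) and 0 fell, beside 5.08% higher and 6.71% lower among all genes tested. The call was kept in 18 of 23 alternatives for Il1rn, 20 of 24 for Mt1 and 17 of 24 for Mt2. The count of rising genes was 0 without 6 mmol/kg replicate 1 and 2 without vehicle replicate 2. Mt2 showed this most plainly, with 15.8, 28.4 and 8.45 CPM in vehicle libraries, 196 and 24.7 at 0.67 mmol/kg and 784, 23.1 and 104 CPM at 6 mmol/kg. Interferon-stimulated genes were middle-dose peaks in 10 of 28 cases, and over dose 1 rose (Gbp2) and 4 fell (Isg15, Stat2, Oasl1 and Ifi35). The same all-gene shares, 16.2% peaks, 5.08% higher and 6.71% lower, stand beside these counts. GBP11, as the deposited table spells a guanylate-binding protein, had 127 and 107 CPM at 0.67 mmol/kg and 14.3 to 64.6 CPM elsewhere, and Atxn7l1 had 24.1 and 22.6 CPM against 9.59 to 14.2 CPM. Neutrophil markers, 3 of 10 of which were tested, summed to 2.19 and 2.25 CPM at 0.67 mmol/kg and to 0.438 to 1.95 CPM in the other libraries. Macrophage markers, 12 of 12 tested, summed to 249 to 431 CPM at 0.67 mmol/kg, against 108 to 351 CPM in vehicle libraries. They summed to 115 to 318 CPM at 0.22, 129 to 386 at 2 and 200 to 362 CPM at 6 mmol/kg, so every group overlapped the 0.67 mmol/kg range. The part of other cell types in the peak was not tested, and in bulk tissue fewer cells of a type and less RNA per cell cannot be told apart.

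For the stress and detoxification lists that follow, 5.08% of all genes tested rose and 6.71% fell, and several counts are near those shares. Of 30 NRF2 and glutathione genes 4 rose and 1 fell (Taldo1). The 4 were Nqo1 (0.25 ± 0.06, adjusted p = 0.0213), a quinone reductase, Srxn1, a sulfiredoxin, Gsr, glutathione reductase, and Slc48a1, a haem transporter. Srxn1 had 38.3, 32.9 and 41.9 CPM in vehicle libraries, 39.5, 35.1 and 39.8 at 2 mmol/kg and 72.7, 62.6 and 61.8 CPM at 6 mmol/kg. All 6 mmol/kg libraries and no 2 mmol/kg library lay above the vehicle range. The same held for Slc48a1, at 93.6, 75.8 and 69.3 CPM at 6 mmol/kg, against 51.1, 45.0 and 47.9 CPM in vehicle libraries. The call was kept in 17 of 24 alternatives for Nqo1, 18 for Srxn1 and 15 for Slc48a1, and it was lost for all 3 without vehicle replicate 2 and without 6 mmol/kg replicate 1 or 3. Srxn1 and Slc48a1 also lost it without 6 mmol/kg replicate 2, and Slc48a1 without 0.22 mmol/kg replicate 2 or 3. ATF4 targets rose in 3 of 18 cases (Trib3, Chac1 and Sesn2), and of 21 endoplasmic reticulum chaperones 1 fell (Calr, -0.17, adjusted p = 0.0172). The chaperone list's median was nonetheless -0.42, -0.61, -0.33 and -0.43 log2 units from vehicle, from the lowest dose to the highest. Its sum was 7625 to 9811 CPM in vehicle libraries, 5525 to 7179 at 0.22 and 5531 to 5947 at 0.67 mmol/kg. At 2 and 6 mmol/kg the sums, 5851 to 8192 and 4536 to 8161 CPM, overlapped vehicle. This shape was not tested for the list. P450 genes of families 1 to 3 rose in 4 of 38 cases and fell in 3. The close relatives Cyp2a4 (0.41) and Cyp2a5 (0.34), Cyp2c39 (0.29) and Cyp3a13 (0.21) rose, while Cyp1a2 (-0.22), Cyp2d10 (-0.14) and Cyp2u1 (-0.30) fell. Cyp2a5, a coumarin hydroxylase, had 503, 380 and 448 CPM in vehicle libraries, 452, 414 and 804 at 2 mmol/kg and 1230, 856 and 1502 CPM at 6 mmol/kg. All libraries at 6 mmol/kg and 1 of those at 2 mmol/kg lay above the vehicle range. Cyp2e1, which oxidises small solvents, had a slope of 0.15 (adjusted p = 0.0549), and Cyp2b10, the usual marker of CAR activation, one of 0.10 (adjusted p = 0.561). Conjugation genes rose in 1 of 26 cases (Sult1d1) and fell in 2 (Sult5a1 and Nat8). Bile acid genes rose in 3 of 28 (Hsd17b4, Abcb4 and Abcg5) and fell in 1 (Fgfr4), and Cyp7a1, which starts bile acid synthesis, was at -0.12 (adjusted p = 0.30).

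The counts of the lipid, glucose, zonation and clock lists stand beside the same 5.08% higher and 6.71% lower. Of 28 lipogenesis genes 5 rose (Elovl2, Elovl5, Fads1, Acsl5 and Lpin1) and 3 fell (Elovl3, Thrsp and Agpat2). Thrsp, a lipogenic regulator, had 314, 378 and 532 CPM in vehicle libraries, 159, 264 and 154 at 2 mmol/kg and 61.0, 198 and 165 CPM at 6 mmol/kg (slope -0.43, adjusted p = 0.0159). Every library at the upper 2 doses lay below all at vehicle. Cholesterol synthesis genes fell in 3 of 24 cases (Mvk, Tm7sf2 and Nsdhl), with Mvk 0.78 and 0.89 log2 units below vehicle at 2 and 6 mmol/kg. Gluconeogenesis and fasting genes rose in 2 of 22 cases (Lpin2 and Foxo1). Wnt targets and pericentral genes fell in 6 of 23 cases, Sp5, Oat, Cyp1a2, Gulo, Lect2 and Slc13a3, in 0 without 6 mmol/kg replicate 1, in 2 without 6 mmol/kg replicate 3 and in 3 without 6 mmol/kg replicate 2 or vehicle replicate 2, in 2 with the GC offset and in 0 with the GC slope as a covariate. In contrast, Glul, also pericentral, was at -0.05 (adjusted p = 0.388) and Rnf43 at -0.17 (adjusted p = 0.11). Periportal genes rose in 2 of 20 (Ctsc and Hsd17b13) and fell in 2, the urea cycle enzymes Ass1 (-0.27) and Asl (-0.16). Clock genes rose in 2 of 18 (Nr1d2, Ciart) and fell in 2 (Npas2, Per2). Nr1d2, a clock repressor, had 9.38, 15.0 and 7.80 CPM in vehicle libraries, 19.3, 41.7 and 28.1 at 2 mmol/kg and 42.3, 24.7 and 49.2 CPM at 6 mmol/kg, both doses clear of vehicle (slope 0.48, adjusted p = 0.00324). The clock-controlled Dbp was at 0.31 (adjusted p = 0.0781), and Rgs16, a G protein regulator, at 0.48 (adjusted p = 0.0152).

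Zbtb16, a transcriptional repressor, had 4.32, 2.97 and 5.13 CPM in vehicle libraries, 7.02, 4.44 and 5.03 at 0.22, 7.16 and 3.86 at 0.67, 6.86, 40.5 and 24.3 at 2, and 56.8, 22.1 and 42.1 CPM at 6 mmol/kg (slope 0.87 ± 0.12, adjusted p = 0.00155). In this gene 1 of the 2 mmol/kg libraries was still within the range of the lower doses. The list counts that follow again stand beside 5.08% higher and 6.71% lower among all genes tested. Among 23 p53 targets 4 rose (Btg2, Sesn2, Fas and Rrm2b) and 1 fell (Bax), while Cdkn1a, the cell cycle inhibitor p21, was at 0.37 (adjusted p = 0.119). Of 15 homologous recombination genes Rad51b rose and Mus81 fell, of 30 replication genes E2f2 fell, and of 24 heat shock genes Hsf1 fell. Immediate early genes rose in 4 of 20 cases (Fosl2, Klf6, Klf10 and Btg2), and aminoacyl-tRNA synthetases fell in 2 of 21 (Farsa and Aars). Among cell type markers, 4 of 11 stellate and fibroblast genes rose (Dcn, Lrat, Rgs5 and Lum). The list summed to 75 to 127 CPM in vehicle libraries, 79.6 to 122 at 0.22, 91.1 to 166 at 0.67, 89.1 to 263 at 2 and 130 to 180 CPM at 6 mmol/kg. Its median was highest at 2 mmol/kg, at 0.05, 0.28, 0.80 and 0.40 log2 units from vehicle from the lowest dose to the highest. Of 12 macrophage markers 1 rose (Emr1), as did 1 of 11 endothelial markers (Lyve1), and 2 of 12 hepatocyte, 1 of 6 T and NK cell and 1 of 3 exocrine pancreas markers (Cela1) fell. The exocrine pancreas sum was 12.5 to 30 CPM at 6 mmol/kg, against 58.9 to 60.8 CPM in vehicle libraries, with Cela3b, Prss2 and Try4 at 0 in all libraries. Markers of B cells, neutrophils, cholangiocytes, erythroid cells and kidney tubule passed in 0 cases, and those of fat cells were too low to test.

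The slope of PCE was set against that of TCE at matched molar doses in 1 fit of the 29 liver libraries, where 0 of 13160 genes (0%) differed after adjustment by edgeR, 2286 did at an unadjusted p under 0.05, and DESeq2 called 79. Slope differences are PCE minus TCE, in log2 units per rank, with 95% intervals. Cyp4a14 had a slope of 2.25 in PCE and 1.93 in TCE livers, a difference of 0.32 (-0.32 to 0.96). Acot1 differed by 0.02 (-0.32 to 0.36) and Slc34a2 by -0.11 (-0.38 to 0.17). Rad51b had a slope of 1.06 in PCE and 0.47 in TCE livers, a difference of 0.59 (0.25 to 0.94) with an unadjusted interval clear of 0 and an adjusted p of 0.174. Cyp2c53-ps differed by -0.47 (-0.82 to -0.11, adjusted p = 0.211). The smallest adjusted p-values were those of Dak, dihydroxyacetone kinase (-0.23, adjusted p = 0.0993), and Mfsd3, a membrane transporter (-0.20, adjusted p = 0.157), both with lower slopes in PCE. These intervals do not show that the solvents act alike, and without TCE vehicle replicate 1 the count was 556 genes.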

How the data were processed

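Liver RNA was sequenced from total RNA with a TruSeq kit on a HiSeq instrument, per the labels' protocols. The deposited table holds raw read counts per RefSeq transcript, 1 column per library, not normalized and not pooled, per the file headers. A line with the dose, a decimal at 0.22 and 0.67 mmol/kg, stands over the deposited columns of those doses, whose unit was therefore handled like expected counts, and rounding left all of them unaltered. Tools listed without roles in the submitters' processing notes are HTSeq, TopHat2 2.0.10 and CASAVA 1.8.2, with build mm10, and strand use is not given in the sources used here. Lines for ambiguous reads (20.04 to 22.26% of a library) and for no feature (15.99 to 22.29%) were left out. Overlapping, antisense and near-identical genes and genes with several isoforms are therefore uncertain in level. Counts of 33392 transcripts were summed to 24077 genes, 29562 transcripts by the deposited symbol, 3704 by the RefSeq table and 126 under their accession, with 51 date-altered symbols restored. Replicates differed by more than sampling noise (chi-square per degree of freedom at least 52.7).

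Genes were tested in edgeR 4.0.16 (R 4.3.3; TMM, filterByExpr, robust quasi-likelihood fit, two-sided, Benjamini-Hochberg adjusted), after the code was tested on simulated data. CPM uses TMM library sizes. Trend fits used dose rank, and the other tests 1 mean per dose. Members, lists and tests were chosen with earlier results of these data known. Genes named are the 10 highest and 10 lowest slopes among trend calls with a mean of at least 1 CPM and no predicted name, the called member of smallest adjusted p in each list, the called genes or, where none, the 2 of smallest p of each shape test, and a set list of 22. Other names were chosen after their values were seen. Some list members are not reported here. Alternatives were DESeq2 1.42.0 and its size factors, no filter, thinned counts, a replicate block, GC terms, other dose codings and leaving out each library. GC content is that of GENCODE gene models for 98.5% of tested genes. Promoters are from RefSeq (GRCm38.p6). Replicate numbers are not said to mark a shared batch, so the main tests used no block.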

Additional observations from a re-analysis of the deposited data

How the results depend on the processing

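The trend count of 1534 was 2369 by DESeq2, 67 with the library GC slope as a covariate, 7 over vehicle to 2 mmol/kg, 668 over 0.22 to 6 mmol/kg and 549 with the GC offset (462 of them among the 1534). The offset and the 2-level codings (0, 2, 524 and 206 calls for splits below 0.22, 0.67, 2 and 6 mmol/kg) were chosen after seeing the data. Leaving out 1 library gave 433 to 2569. The 47 calls of any difference were 1067 by DESeq2, 21 with the replicate block, 0 with the GC covariate, 258 with all 29 liver libraries in 1 fit, and 15 to 78 with 1 library left out (21 without vehicle replicate 1, 25 and 30 without 0.22 mmol/kg replicates 2 and 3, 17 without 0.67 mmol/kg replicate 1, 24 without 2 mmol/kg replicate 3, and 25, 78 and 15 without 6 mmol/kg replicates 1, 2 and 3). Departures, 3, were 54 by DESeq2, 6 in the fit of 29, 0 with the block, the GC covariate or the GC offset, and 0 to 8 with 1 library left out, with 0 in 10 of these 14 cases. The quadratic contrast gave 44 by DESeq2 and 0 to 1 with 1 library left out. The 4 steps gave 6, 22, 30 and 11 by DESeq2 and 1, 1, 3 and 1 in the fit of 29, and with 1 library left out 0 to 0, 0 to 6, 0 to 5 and 0 to 0. The share of called genes stepping between 2 and 6 mmol/kg, 19.1%, was 6.38% with the class limit at 0.6 and 0 to 34.3% with 1 library left out. The share of peaks or troughs, 10.6%, was 0% among trend calls and 0 to 32% with 1 library left out. The slope difference from TCE called 79 by DESeq2 and 0 to 556 with 1 library left out. Isg15 reversed to 0.023 (adjusted p = 0.913) with the GC covariate. For these changes the cause was not tested.

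Deviations from the group means correlated from -0.738 to 0.725 in 26 same-numbered pairs (median -0.012, 8 over 0.1). In 52 other pairs they correlated from -0.886 to 0.847 (median 0.009, 22 over 0.1). Between vehicle, 0.22 and 0.67 mmol/kg, pairs of replicates 1 and of replicates 2 were all positive (0.174 to 0.725), and that of replicates 3 was -0.738. A shared batch was thus neither shown nor excluded. The replicate block called 1291 genes in the trend. Counts thinned to 1 common depth also called 0 genes in the quadratic contrast. Precision is limited by 2 or 3 libraries per dose, and the 0.67 mmol/kg group of 2 carries every peak named above.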
